A study of Mus musculus with 12 samples.

Results

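Lung mesenchyme, the connective tissue around airways, alveoli and vessels, carries a set of genes that direct its growth in the embryo and mark its cells in the adult. Expression of 10 such genes, Tcf21, Tbx2, Tbx3, Tbx4, Tbx5, Foxf2, Meox1, Meox2, Gli1 and Hhip, was compared between spontaneous lung tumours and normal lung of aged mice. They were taken as the probe sets whose single gene symbol in the platform annotation is one of these names, which gave 22 of the 45037 probe sets tested and 10 of the 18193 genes. The probe set with the highest mean signal over the 12 arrays stood for each gene. Of the 10 genes, 9 encode transcription factors. Hhip encodes a membrane protein that binds hedgehog ligands and is not one.

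The samples were 6 lung tumours that arose spontaneously and 6 normal lungs, all from untreated B6C3F1 mice (the cross of C57BL/6 and C3H strains used in long-term rodent bioassays) at 2 years of age in a National Toxicology Program study. RNA was extracted from frozen tissue, amplified and read on Affymetrix mouse arrays, with an array for each sample. No transgene or treatment was involved. Sex-linked genes differed between the groups, as given below. Neither the histology of the tumours nor whether each sample came from its own animal is given in the labels. The p-values therefore measure the spread between these samples, which could be technical in part.

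In the embryonic lung, mesenchyme and epithelium signal to each other. Epithelial hedgehog ligand acts on the mesenchyme through the receptor Ptch1 and the Gli transcription factors, the T-box factors Tbx4 and Tbx5 drive the mesenchymal growth factor Fgf10, and Tbx2 and Tbx3 keep mesenchymal progenitors dividing by repressing cell cycle inhibitors. In the adult mouse lung, Tcf21 marks fibroblasts of the alveolar wall, Tbx4 marks much of the lung's fibroblast and muscle lineage, and Hhip and the Gli genes are active mainly in fibroblasts and smooth muscle.

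Of the 10 genes, 8 were lower in tumours than in normal lung, none was higher, and Meox1 and Gli1 did not pass the test (limma with Benjamini-Hochberg adjustment over all 45037 probe sets, adjusted p under 0.05). Among all 18193 genes the same rule called 17.5% lower and 12.2% higher. The median difference of the 10 genes was -2.17 on the log2(signal + 16) scale, tumour minus normal lung, against -0.08 over all genes. In each of the 8 genes every tumour lay below every normal lung, a pattern met by 11.8% of all genes. Counted by probe set, 18 of 22 were lower, 0 were higher and 4 did not pass, against 13.9% of all probe sets called lower. In whole tissue, fewer mesenchymal cells and less RNA per cell cannot be told apart. Every difference below is tumour minus normal lung on this log2 scale, ± its standard error with 6 arrays per group, and signals are MAS5 units, which cannot be compared between genes. Of all genes called, 58.9% were lower, and 40.1% were when each array was centred on its median. The count of 8 lower and 0 higher among the 10 genes was the same in all 27 alternative settings.

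**Figure D1:**
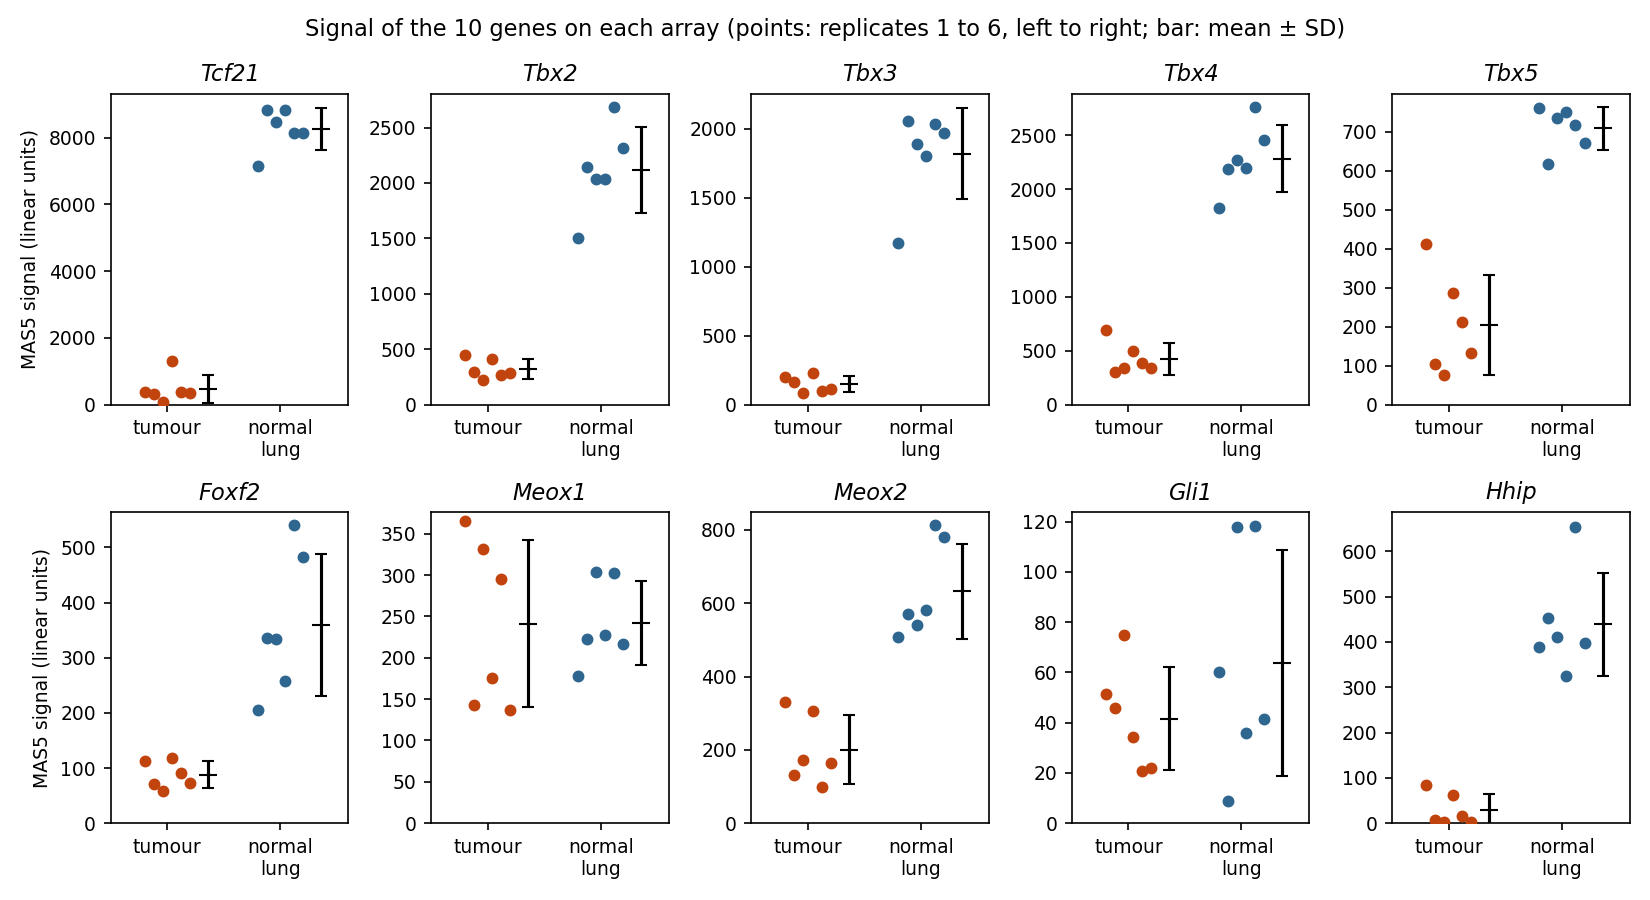
MAS5 signal (linear units, axes from 0) of the 10 genes on each array, with 6 tumours left of 6 normal lungs in every panel; points are replicates 1 to 6 from left to right and bars show the mean ± SD, cut at 0 for Hhip in tumours. In 8 panels all tumours sit below all normal lungs, and in the panels of Meox1 and Gli1 the groups overlap.

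Promoter sequence was held for 5 of the 10 genes in the RefSeq promoter table (build GRCm38.p6): Tcf21, Tbx4, Foxf2, Meox2 and Hhip, all of which fell. The 250 bases before the start were searched on both strands for 6 motifs: TATAA (TATA box), GACCACCC (Gli factors), GGTGTGA (T-box factors), TGTTTAC (forkhead factors), CAGCTG (E-box, the kind of site that factors like Tcf21 bind) and AGATAA (a motif read by GATA proteins). Matches were found in 4 of the 5 promoters, which are printed to show where the matches lie in genes that fell together. Capitals mark a match.
Tcf21 (chr10:22820144-22820393, minus strand): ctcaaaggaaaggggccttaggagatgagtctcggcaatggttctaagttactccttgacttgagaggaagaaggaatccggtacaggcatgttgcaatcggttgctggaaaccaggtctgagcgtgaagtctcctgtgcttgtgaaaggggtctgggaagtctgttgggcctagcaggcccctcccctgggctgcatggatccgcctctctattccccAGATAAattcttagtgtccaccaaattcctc
Tbx4 (chr11:85896515-85896764, plus strand): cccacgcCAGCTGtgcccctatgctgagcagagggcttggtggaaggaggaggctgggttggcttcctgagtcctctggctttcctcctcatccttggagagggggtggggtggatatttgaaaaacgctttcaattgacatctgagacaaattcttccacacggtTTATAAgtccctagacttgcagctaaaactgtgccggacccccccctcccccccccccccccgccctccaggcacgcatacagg
Foxf2 (chr13:31625566-31625815, plus strand): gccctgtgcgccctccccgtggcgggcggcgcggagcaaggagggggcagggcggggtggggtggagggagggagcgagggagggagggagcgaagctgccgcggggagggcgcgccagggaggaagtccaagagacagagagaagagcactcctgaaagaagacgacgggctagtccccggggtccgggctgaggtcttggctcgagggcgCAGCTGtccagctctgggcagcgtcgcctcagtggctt
Meox2 (chr12:37108290-37108539, plus strand): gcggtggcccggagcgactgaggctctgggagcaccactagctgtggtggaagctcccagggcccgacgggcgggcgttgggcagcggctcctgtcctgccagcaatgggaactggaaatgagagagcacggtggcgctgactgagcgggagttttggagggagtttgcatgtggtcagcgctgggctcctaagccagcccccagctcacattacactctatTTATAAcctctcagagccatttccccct
The Tcf21 promoter held AGATAA at -31 to -26 from the start, a motif present in 9.99% of all 32851 promoters. TATAA was found on both strands of 2 promoters, as overlapping matches that together read TTATAA: in Meox2 at -28 to -24 (reverse complement) and -27 to -23 (as written), and in Tbx4 at -84 to -80 and -83 to -79. A match on either strand was found in 22.8% of all promoters. CAGCTG stood at -243 to -238 in Tbx4 and at -38 to -33 in Foxf2, against 13.0% of all promoters. No window of the 5 genes held GACCACCC, GGTGTGA or TGTTTAC, which were found in 0.703%, 3.33% and 3.17% of all promoters. Different motifs did not overlap each other in these windows. The share of G and C ran from 52.4% in Tcf21 and 58.4% in Tbx4 to 62.0% in Meox2, 71.6% in Foxf2 and 76.0% in Hhip, with a median of 52.4% over all promoters. No motif searched was found in more than 2 of the 5.

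Tcf21, a basic helix-loop-helix factor needed for alveolar development in the mouse, had the largest difference of the 10 genes at the offset of 16, and Hhip had it at an offset of 1 (-4.79). The signal of Tcf21 was 71.5, 357 and 1296 (lowest, median and highest) in tumours, against 7138, 8300 and 8823 in normal lungs. The highest tumour, tumour 4, was still far below the lowest normal lung, and tumour 3 stood apart at the low end. The mean was 464 ± 424 in tumours and 8251 ± 626 in normal lungs (SD, n = 6 each), so tumours held 5.62% of the normal level, and 3.61% without tumour 4. The difference was -4.52 ± 0.43 (limma, Benjamini-Hochberg adjusted p = 2.36e-06), and 13 of the 18193 genes fell further. A dimmer second probe set fell by 1.70 on the log2 scale.

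The 4 T-box genes lie as 2 neighbouring pairs in the mouse genome, Tbx2 with Tbx4 on chromosome 11 and Tbx3 with Tbx5 on chromosome 5, with 0 coding genes between the members of a pair in the RefSeq annotation. All 4 were lower in tumours. Tbx3, a repressor that holds back cell cycle inhibitors in lung mesenchyme, was represented by 5 probe sets. The signal of the brightest was 87.7, 137 and 229 (lowest, median, highest) in tumours, against 1171, 1928 and 2058 in normal lungs. Normal lung 1 stood below the rest of its group, yet far above the highest tumour. Tumours averaged 148 ± 58.0 and normal lungs 1819 ± 332 (SD, n = 6 each), a difference of -3.53 ± 0.22 (limma, adjusted p = 1.03e-07). Of the 5 probe sets 4 were lower, of which the dimmest fell by 2.00 and another differed by -3.97, and the fifth, near the bottom of the scale on most arrays, did not pass (-0.24 ± 0.31).

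Tbx2, the closest relative of Tbx3, had signals of 225, 289 and 446 in tumours, against 1499, 2089 and 2684 in normal lungs. The tumours were close together and no array of either group approached the other group. With means of 321 ± 87.1 in tumours and 2119 ± 389 in normal lungs (SD, n = 6 each), Tbx2 differed by -2.68 ± 0.18 (limma, adjusted p = 1.43e-07). It was represented by 1 probe set.

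Tbx4, the T-box factor that with Tbx5 drives lung bud outgrowth and branching in the mouse, had signals of 302, 363 and 691 in tumours, against 1826, 2233 and 2763 in normal lungs. Tumour 1 was the highest tumour and the other tumours were near each other. Tbx4 averaged 425 ± 146 in tumours and 2283 ± 311 in normal lungs (SD, n = 6 each), a difference of -2.43 ± 0.18 (limma, adjusted p = 3.42e-07), and its second probe set fell by 2.00.

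Tbx5, also a factor of heart and forelimb development, had signals of 77.2, 172 and 412 in tumours, against 618, 727 and 760 in normal lungs. Tumours spread widely, with tumour 1 above and tumour 3 below the rest, whereas normal lungs were tightly grouped. The mean was 204 ± 128 in tumours and 709 ± 54.9 in normal lungs (SD, n = 6 each), a difference of -1.92 ± 0.30 (limma, adjusted p = 2.60e-04). The second probe set fell by 2.02.

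Of the 4 coding genes on either side of these T-box pairs, 2 were lower, against 17.5% of all genes. As a share, 4 genes are too few to read. These neighbours were chosen by position after the member values were seen. Beside Tbx2 and Tbx4, Bcas3 was lower (236 ± 42.0 in tumours, against 364 ± 54.8 in normal lungs, difference -0.59 ± 0.16, limma adjusted p = 0.0143), and Brip1 did not pass (0.66 ± 0.34, adjusted p = 0.191). Beside Tbx3 and Tbx5, Med13l was lower (999 ± 301 in tumours, against 1822 ± 258 in normal lungs, difference -0.92 ± 0.21, limma adjusted p = 0.00418), and Rbm19 did not pass (-0.08 ± 0.16, adjusted p = 0.772).

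Foxf2, a forkhead factor of gut and lung mesenchyme that lies downstream of hedgehog signalling, had signals of 59.2, 82.0 and 119 in tumours, against 205, 335 and 540 in normal lungs. The groups did not overlap, and normal lungs 5 and 6 were the highest. Foxf2 averaged 87.8 ± 24.1 in tumours and 359 ± 129 in normal lungs (SD, n = 6 each), a difference of -1.81 ± 0.25 (limma, adjusted p = 7.26e-05). The other probe set of Foxf2 was near the bottom of the scale in both groups (0.22 ± 0.28, not passed), and averaging the pair gave -0.80 with the call unchanged.

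Meox1 and Meox2 are related homeobox factors that act together in the embryonic somites, and Meox2 also restrains division in vascular muscle and endothelial cells. Meox2 had signals of 97.6, 169 and 331 in tumours, against 506, 577 and 813 in normal lungs. Tumours 1 and 4 were the highest tumours, and all tumours lay below the lowest normal lung. The mean was 201 ± 94.9 in tumours and 632 ± 131 in normal lungs (SD, n = 6 each), a difference of -1.67 ± 0.26 (limma, adjusted p = 1.93e-04), with a second probe set that fell by 1.87.

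Meox1 did not pass. Its signal was 137, 236 and 365 in tumours, against 178, 225 and 304 in normal lungs. Tumours fell into a higher set, tumours 1, 3 and 5 at 365, 331 and 296, and a lower set, tumours 2, 4 and 6 at 143, 176 and 137, on either side of most normal lungs. The mean was 241 ± 101 in tumours and 242 ± 50.9 in normal lungs (SD, n = 6 each), a difference of -0.08 ± 0.25 (limma, adjusted p = 0.864) with a 95% interval of -0.62 to 0.46. Any difference within that interval is compatible with these arrays.

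The remaining genes belong to the hedgehog pathway. Hhip, which captures hedgehog ligands at the cell surface and lies in a region linked to human lung function, had signals of 3.13, 11.5 and 85.3 in tumours, against 326, 404 and 654 in normal lungs. Tumours 1 and 4 kept some signal, and the other tumours were at or near the bottom of the scale. Hhip averaged 29.6 ± 35.4 in tumours and 439 ± 113 in normal lungs (SD, n = 6 each), which is 6.75% of the normal level, or 4.22% without tumour 1, and a difference of -3.62 ± 0.41 (limma, adjusted p = 1.16e-05). All 4 of its probe sets were lower, with differences of -3.62 to -2.13. Because the tumour signals lie about the offset of 16, the size depends on it: -4.79 with an offset of 1 and -2.48 with an offset of 64.

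Gli1, the Gli factor that hedgehog signalling itself switches on, was dim in both groups and below the median of all probe sets (145 in tumours and 161 in normal lungs). Its signal was 20.7, 40.0 and 75.0 in tumours, against 8.96, 51.0 and 118 in normal lungs. The normal lungs spanned a wider range than the tumours, and the groups overlapped. Gli1 averaged 41.5 ± 20.5 in tumours and 63.8 ± 45.1 in normal lungs (SD, n = 6 each), a difference of -0.33 ± 0.40 (limma, adjusted p = 0.619) with a 95% interval of -1.18 to 0.53. Differences anywhere within that interval are compatible with these arrays.

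**Figure D2:**
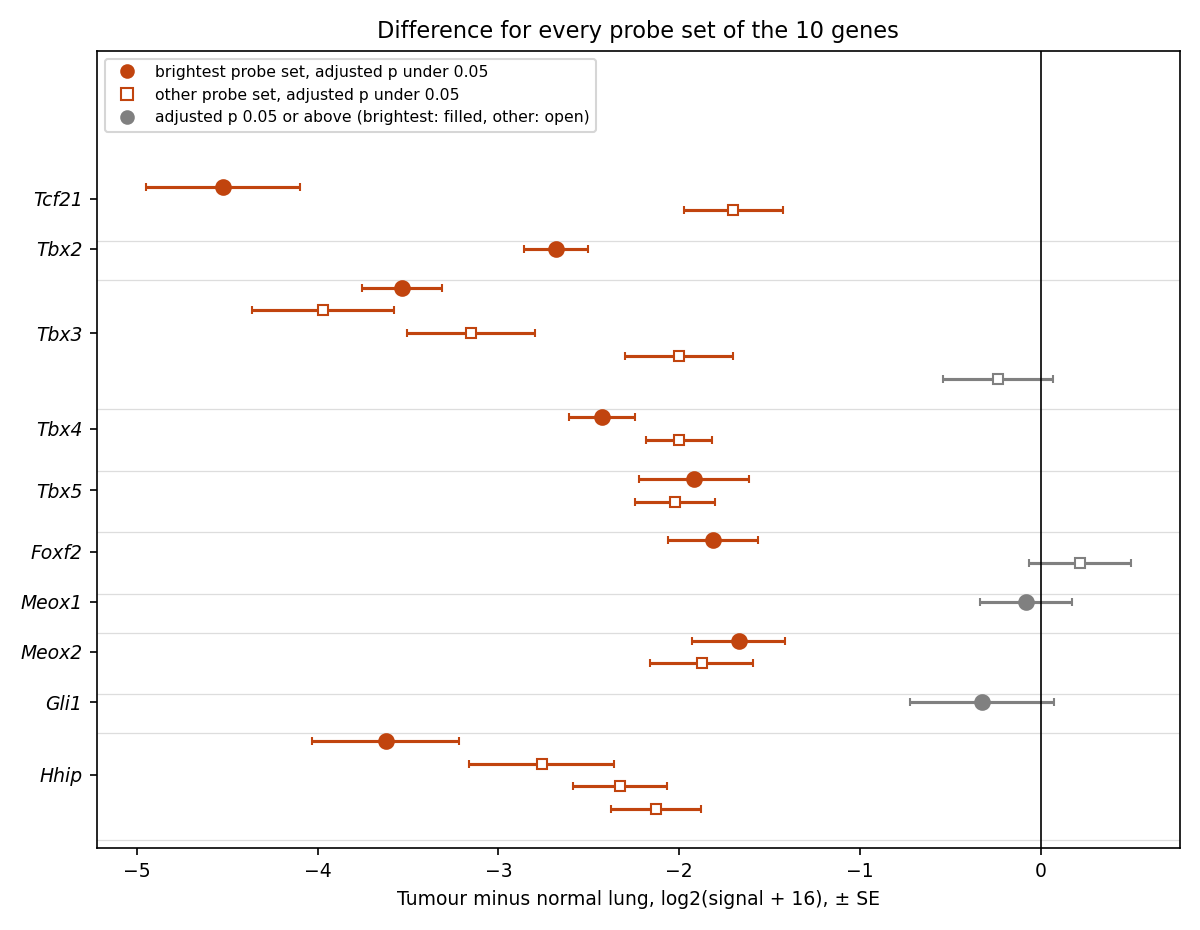
Difference (tumour minus normal lung, log2(signal + 16), ± SE) of all 22 probe sets by gene, with the brightest probe set of each gene filled and the others open, and grey for those that did not pass. Of the 20 probe sets of the 8 genes that fell, 18 were lower, and the grey ones of Tbx3 and Foxf2 are those near the bottom of the scale.

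The genes that fell shared their highest pair of tumours and ranked the other tumours less alike. Across the 8 genes that fell, tumours 1 and 4 were the highest pair in all 8, with tumour 1 first in 5 and tumour 4 first in 3. Tumour 3 was the lowest in 6 of the 8, and tumours 2 and 5 were lowest in 1 each. The median level over the 8 genes, as a percentage of the normal mean, was 25.7% in tumour 1 and 20.5% in tumour 4. It was 14.1% in tumour 6, 14.0% in tumour 5, 13.5% in tumour 2 and 10.8% in tumour 3. Meox1 and Gli1, which did not pass, ranked the tumours otherwise. Tumour 3 was the highest for Gli1, at 75.0, and tumour 4 was in the lower set for Meox1, at 176. The ranks came from the same arrays in every gene, so they describe these tumours.

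Tumours differed in how much of each gene they kept. Hhip was at 0.713% of the normal mean in tumour 3, a signal at the bottom of the scale, and at 19.4% in tumour 1. Tcf21 was at 0.867% in tumour 3 and at 15.7% in tumour 4. By the ratio of the highest to the lowest tumour these 2 genes varied most of the 8, at 27.3 and 18.1, and Tbx2 and Foxf2 least, at 1.98 and 2.01. In percentage points Tbx5 varied most, from 10.9% in tumour 3 to 58.2% in tumour 1, and Tbx3 least, from 4.82% in tumour 3 to 12.6% in tumour 4.

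**Figure D3:**
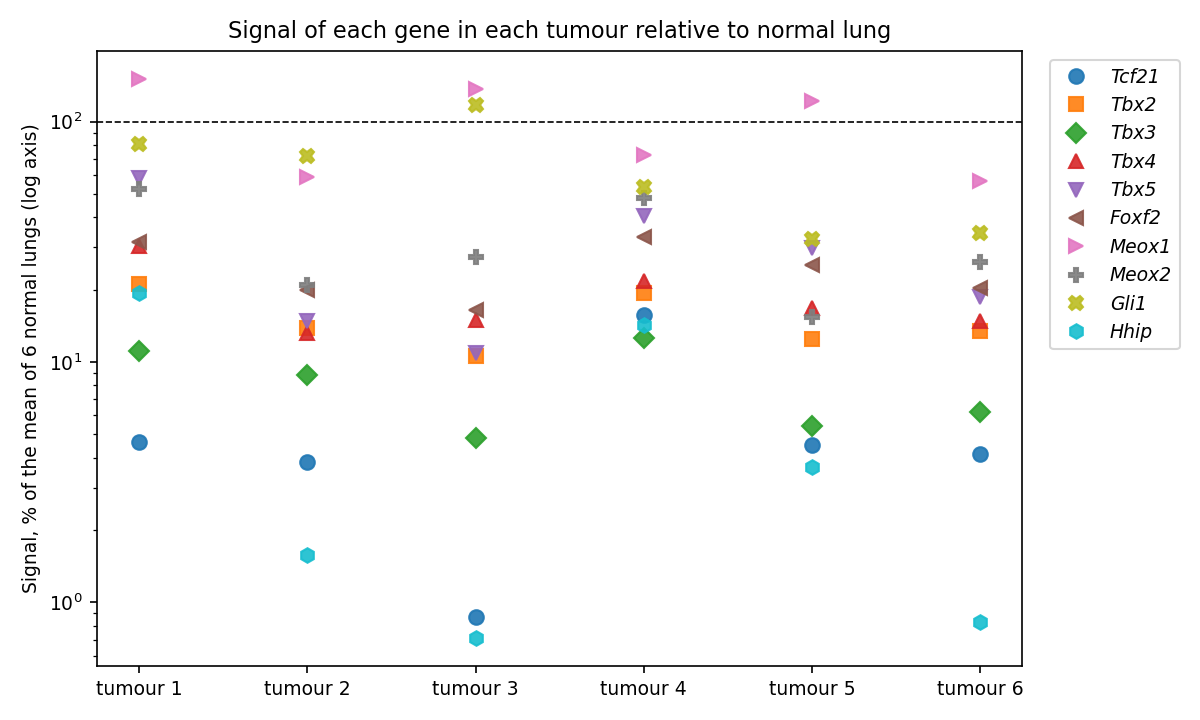
Signal of each of the 10 genes in each tumour as a percentage of the mean of the 6 normal lungs (log axis; the dashed line is the normal mean). Points of the 8 genes that fell lie highest in tumours 1 and 4, where none is below 4.67%, and reach 0.713% in tumour 3.

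Related genes were set against each other within arrays, as the log2 difference between both genes of a pair. The 5 pairs were chosen after the values were seen, so these differences are given as a description only. Signals cannot be compared between genes, so only the change of a difference between the groups can be read. Meox2 minus Meox1 was -0.26 ± 0.79 in tumours and 1.33 ± 0.32 in normal lungs (SD, n = 6 each). Hhip minus Gli1 was -0.60 ± 1.16 in tumours and 2.70 ± 0.85 in normal lungs, with Hhip at the bottom of the scale in most tumours and Gli1 dim in both groups.

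Foxf2 minus its relative Foxf1 was -1.99 ± 0.58 in tumours and -4.08 ± 0.55 in normal lungs (SD, n = 6 each). Foxf2 was the dimmer gene, whose difference the offset shrinks more. The shift of 2.08 ran from 1.69 to 2.60 over 22 alternative settings, the other offsets included. Tbx4 minus Tbx5 was 1.15 ± 0.48 in tumours and 1.66 ± 0.25 in normal lungs. Tbx2 minus Tbx3 was 1.07 ± 0.22 in tumours and 0.22 ± 0.13 in normal lungs, a shift of 0.85 that became -0.10 when all probe sets of Tbx3 were averaged. No order among the falls of paired genes is drawn from these values.

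Hedgehog signalling around Hhip and Gli1 was read from 20 further pathway genes, 19 of them measured. Of these 10 were lower, 0 were higher and 9 did not pass, with a median difference of -0.72. Among all genes 17.5% were lower and 12.2% higher, with a median of -0.08. Among the ligands, Shh, which lung epithelium makes, had signals of 975, 3678 and 5968 in tumours, against 1645, 1833 and 2248 in normal lungs. Tumours lay on both sides of the normal range, and the difference did not pass (0.66 ± 0.35, limma adjusted p = 0.198). Ihh (0.11 ± 0.42) and Dhh (-0.78 ± 0.63) did not pass either. Scube2, a secreted protein that helps release hedgehog ligand, had the largest fall of the pathway, with 83.8 ± 59.0 in tumours and 1785 ± 196 in normal lungs (SD, n = 6 each), a difference of -4.35 ± 0.29 (limma, adjusted p = 1.44e-07).

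The receptor Ptch1, itself a target of the pathway, was at 1234 ± 444 in tumours and 3077 ± 389 in normal lungs (SD, n = 6 each). The difference was -1.41 ± 0.26 (limma, adjusted p = 8.08e-04) in its brightest probe set, and 2 of its 3 probe sets were lower. All 3 co-receptors, Boc (-1.64 ± 0.16, 2 of 3 probe sets), Gas1 (-2.25 ± 0.41, 2 of 3) and Cdon (-0.72 ± 0.16, 1 of 2), were lower. Smo, the transducer that Ptch1 holds in check, did not pass (0.48 ± 0.24, adjusted p = 0.163), nor did the inhibitor Sufu (0.18 ± 0.14, adjusted p = 0.410). Gli2, dim in both groups, fell by 1.15 (adjusted p = 0.00733) in 1 of 2 probe sets. The brightest probe set of Gli3 did not pass (-0.51 ± 0.21, adjusted p = 0.0941), and 1 of its 3 was lower. Glis2, a zinc finger protein of the Gli family, was lower (-1.08 ± 0.14), as were Spop, an adaptor of a ubiquitin ligase that acts on Gli proteins (-0.54 ± 0.11), and Ift88, a transport protein of the primary cilium (-0.48 ± 0.13). With the Y-linked gene Eif2s3y as a covariate 6 pathway genes were lower. With tumour 1, 2 or 6 or normal lung 4 left out, 1 was higher.

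Beyond the members, 37 other transcription factors of mesenchyme were listed and 35 measured. Of these 18 were lower, 0 were higher and 17 did not pass, with a median difference of -0.81, and 18 of the 35 were dim in both groups. All genes had shares of 17.5% lower and 12.2% higher. Foxf1, the hedgehog target needed for lung vessels in the mouse, had signals of 200, 370 and 967 in tumours, against 5359, 5997 and 6956 in normal lungs. No tumour came near the normal range, and the difference was -3.90 ± 0.27 (limma, adjusted p = 2.29e-07). Klf2, a factor of endothelium under flow (-2.56 ± 0.26), and Klf4, found in vessels and epithelium (-1.69 ± 0.26), were lower. So were Hlx, a homeobox factor of visceral mesenchyme (-1.54 ± 0.20), and Nr2f2, a factor of venous and mesenchymal cells (-1.20 ± 0.13, 4 of 6 probe sets). Osr1 (-0.87 ± 0.22, adjusted p = 0.00810) and Prrx1 (-0.80 ± 0.19, adjusted p = 0.00600, 2 of 6 probe sets), both of embryonic mesenchyme, were lower as well (limma). Twist1, dim in both groups, did not pass (0.46 ± 0.28, adjusted p = 0.268). Without tumour 1 or normal lung 1, 1 of these genes was higher.

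The other T-box genes were split between calls. Of 13 listed, 11 were measured, of which 3 were lower, 1 was higher and 7 did not pass, with a median difference of -0.37. Over all genes 17.5% were lower and 12.2% higher. Dim in both groups were 7 of the 11, Tbx20 and Tbx21 among them, which limits what can be read from this family. Tbx20, a heart factor lower in 2 of 3 probe sets, averaged 28.9 ± 17.2 in tumours and 136 ± 41.1 in normal lungs (SD, n = 6 each), a difference of -1.83 ± 0.33 (limma, adjusted p = 7.05e-04). Tbx21, a factor of T helper and natural killer cells (-2.09 ± 0.41), and Mga, a Myc network protein (-0.38 ± 0.11, 1 of 5 probe sets), were lower too. Tbx15, a factor of skeletal and skin mesenchyme, rose, with 61.4, 340.0 and 764 in tumours, against 3.85, 40.9 and 82.6 in normal lungs. All tumours but the lowest stood above every normal lung, and the difference was 2.39 ± 0.54 (limma, adjusted p = 0.00402). The rise did not pass with Eif2s3y as a covariate, when 0 T-box genes were higher. Tbx6 (-0.56 ± 0.22), Tbx1 (-0.73 ± 0.55) and Tbx18 (-0.04 ± 0.42) did not pass.

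Signalling genes around mesenchyme, epithelium and vessels were read from a list of 34, all measured. The list held growth factors of mesenchyme and of epithelium, receptors, retinoic acid genes, and Etv and Spry genes. Of the 34 genes, 16 were lower, 3 were higher and 15 did not pass, with a median difference of -0.45. The shares over all genes were 17.5% lower and 12.2% higher. Fgf10, the branching factor downstream of Tbx4 and Tbx5 in the embryo, had signals of 21.7, 32.9 and 63.4 in tumours, against 126, 153 and 178 in normal lungs. The groups did not overlap, although the gene was dim in both, and the difference was -1.74 ± 0.23 (limma, adjusted p = 4.37e-05). Fgf7, a fibroblast factor for epithelium (-2.85 ± 0.22), Wnt2, a mesenchymal Wnt ligand (-3.88 ± 0.36), and Rspo1, an enhancer of Wnt signalling (-3.13 ± 0.31), were lower. So were the receptors Pdgfra, of alveolar fibroblasts (-2.91 ± 0.35), and Kdr, of endothelium (-3.26 ± 0.27).

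Results among the receptors were mixed. Fgfr3 (-2.26 ± 0.32) and Fgfr4 (-2.27 ± 0.35), receptors of fibroblast growth factors named after their values were seen, were lower. Fgfr2, the receptor of Fgf7 and Fgf10, ran from 965 to 10512 in tumours, against 2266 to 2892 in normal lungs, and did not pass (0.73 ± 0.53, limma adjusted p = 0.360). Bmp4, made by both layers, missed the threshold (0.89 ± 0.31, adjusted p = 0.0502), and Wnt2b (0.16 ± 0.41) and Aldh1a2, an enzyme of retinoic acid synthesis (0.70 ± 0.35), did not pass. The 3 genes that rose, named after their values were seen, were Etv4, an ETS factor switched on by fibroblast growth factor signalling (2.98 ± 0.40), Wnt7b, an epithelial Wnt ligand (1.59 ± 0.43), and Spry2, a feedback inhibitor of receptor kinases (0.86 ± 0.17, 1 of 2 probe sets). Etv4 averaged 229 ± 99.5 in tumours and 11.2 ± 5.01 in normal lungs (SD, n = 6 each; limma, adjusted p = 6.58e-05), with no overlap. The count of 3 was 5 without tumour 2, 5 after a filter on dim probe sets and 6 after median centring.

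**Figure D4:**
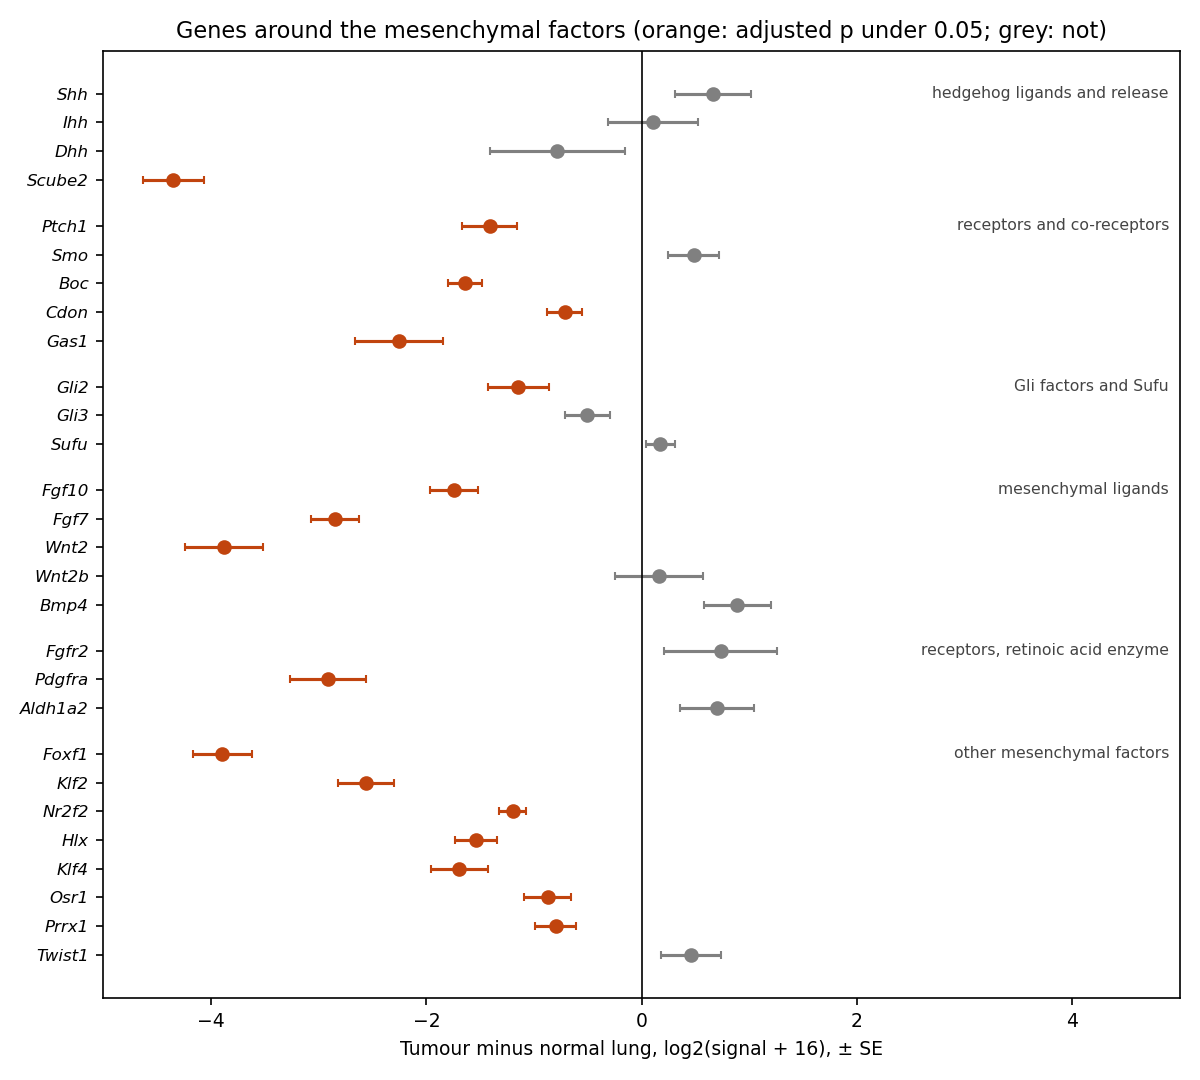
Difference (tumour minus normal lung, log2(signal + 16), ± SE) of genes that act with the mesenchymal factors, grouped by role. Orange marks adjusted p under 0.05 and grey the rest. Scube2, Foxf1 and Wnt2 lie furthest to the left, while the ligand Shh and the receptors Smo and Fgfr2 are grey and right of 0.

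Markers of mesenchymal cell types were read beside the 10 genes. For all genes the shares called were 17.5% lower and 12.2% higher. Of 18 fibroblast markers 11 were lower, 6 did not pass and 1, the lipid droplet gene Plin2, was higher, with summed signals of 27789 to 67789 in tumours, against 120130 to 139820 in normal lungs. Itga8 and Col13a1, of alveolar fibroblasts, were lower (-3.81 ± 0.32 and -3.80 ± 0.28), whereas the collagens Col1a1 (0.95 ± 0.34), Col3a1 (0.65 ± 0.24) and Col1a2 (0.12 ± 0.24) did not pass in their brightest probe set, nor did Fn1, Lum and Col14a1. Each of these 3 collagens had another probe set that was higher in tumours (1.34 ± 0.31 for Col1a1, 0.75 ± 0.24 for Col3a1 and 0.92 ± 0.29 for Col1a2, limma adjusted p = 0.00545, 0.0342 and 0.0305). All 11 smooth muscle markers were lower, among them Myh11 (-3.86 ± 0.22) and Synpo2 (-2.51 ± 0.25), with sums of 6469 to 10472 in tumours, against 21135 to 35806 in normal lungs. Of 12 pericyte markers 7 were lower, with sums of 9781 to 15554 in tumours, against 15365 to 23658 in normal lungs. Of these, Gucy1b1 fell by 2.47 while Rgs5 rose (3.03 ± 0.27, limma adjusted p = 1.45e-06), and Postn, Abcc9 and Kcnj8 did not pass. Pdgfrb did not pass in its brightest probe set, and 1 of its 2 probe sets was lower.

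All 18 endothelial markers were lower, among them Acvrl1 (-3.63 ± 0.20) and Gpihbp1 (-2.63 ± 0.13), with sums of 9143 to 24137 in tumours, against 92818 to 123790 in normal lungs. Of 15 cardiac muscle markers, carried in mouse lung by the walls of pulmonary veins, 12 were lower, among them Tnnc1 (-3.74 ± 0.22) and Myoz2 (-3.42 ± 0.22), with sums of 745 to 3952 in tumours, against 25509 to 40258 in normal lungs. Of 9 mesothelial markers 6 were lower, Gpm6a (-4.42 ± 0.42) and Rspo1 (-3.13 ± 0.31) among them, with sums of 340.2 to 12794 in tumours (median 857), against 3752 to 8616 in normal lungs (median 6756). The highest tumour sum came mostly from Msln, at 12120 in that tumour. Epithelial markers went the other way: 14 of 16 were higher and 0 lower, Epcam (2.30 ± 0.18) and Spint1 (1.58 ± 0.14) among them, with sums of 61772 to 150430 in tumours, against 32224 to 37483 in normal lungs. No marker was listed at 0 on any array. The part of these cell types in the changes of the 10 genes was not tested.

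Tumours 1 and 4, which kept the most of the 8 genes, also had the highest mean log2 signals of endothelial markers (9.87 and 10.04, with 8.70 to 9.38 in the remaining tumours) and of cardiac muscle markers (7.45 and 7.61, with 5.82 to 6.86 in the rest). Tumour 3, lowest in 6 of the 8 genes, was the lowest in cardiac muscle (5.82), fibroblast (8.94) and smooth muscle markers (7.19). In fibroblast markers tumour 4 was the highest (10.84), but tumour 1 (10.19) lay below tumours 2 and 6. In smooth muscle markers tumour 4 (8.36) was followed by tumour 2 (8.35) and then tumour 1 (7.99). Other lists ordered the tumours differently: in pericyte markers tumour 4 (8.81) was second lowest and tumour 3 (9.17) lay above tumours 2, 4 and 6, and in mesothelial markers tumours 6 (7.32) and 2 (6.96) were the highest.

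Some samples stood apart by other genes. Of 12 liver markers 3 were lower in tumours, against 17.5% of all genes, among them Apoa2 (-2.72 ± 0.75) and Serpina1b (-3.54 ± 1.01). Their mean log2 signal was 5.37 to 6.94 in tumours and 5.46 to 7.78 in 4 of the normal lungs, but 9.91 and 10.44 in normal lungs 2 and 4. Of 5 adipocyte markers measured 2 were lower, Adipoq (-1.75 ± 0.46) and Retn (-1.17 ± 0.37). Of 4 sex-linked genes measured, the Y-linked Eif2s3y, Kdm5d and Uty were higher in tumours and Xist, the RNA of the silenced X, was lower. Eif2s3y had signals of 2.09, 1034 and 1638 (lowest, median, highest) in tumours, against 2.18, 18.3 and 27.4 in normal lungs. The high tumours were 1, 2, 3 and 5, which therefore came from other animals than these normal lungs. Xist had signals of 47.1, 93.6 and 12621 in tumours, against 7877, 9254.5 and 11265 in normal lungs. Sex, as read from these genes, is thus mixed with group in the comparison of all 12 arrays. Without normal lungs 2 and 4, without tumours 1, 2, 3 and 5, and with Eif2s3y as a covariate, 8 of the 10 genes were lower each time.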

How the data were processed

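Biotin-labelled RNA from 6 tumours and 6 normal lungs was hybridised to Affymetrix mouse arrays, per the labels, whose titles gave groups and replicate numbers. The authors deposited a linear signal intensity for each probe set. They used MAS5, per the submitters' processing notes, with version and settings not given in the sources used here. Every array had a trimmed mean of 500.00, and this scaling was kept. Median signals were 127 to 150 in tumours and 152 to 165 in normal lungs. Detection calls were not used here, and the number of arrays limits the precision.

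Of 45101 probe sets, 64 array controls were left out. GEO's platform annotation, checked through RefSeq tables (GRCm38.p6; 0 symbols changed), gave 34945 of 45037 probe sets 1 symbol, 932 several and 9160 none. Values were fitted as log2(signal + 16) in R 4.3.3 with limma 3.58.1 (lmFit, then eBayes with its trend option; no covariate, no filter on low values), two-sided, with Benjamini-Hochberg adjustment over all 45037 probe sets at 0.05. The offset shrinks differences of dim genes. A gene is dim where its mean is below the median of all probe sets.

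The 10 genes, 4 lists of other genes and 10 marker lists were chosen with earlier results of these data known. Named genes were all 10 with all their probe sets, from the other lists the core pathway genes whatever their result and up to 4 with the smallest adjusted p, 2 per marker list, and others stated as chosen after their values were seen, which include the pairs, neighbours and further markers. The fit was tested on simulated data. Alternatives were offsets of 1 and 64, median centring, quantile normalization, no trend, removal of dim probe sets, robust variance, the replicate block, array weights, 3 other ways to represent a gene, each array left out, normal lungs 2 and 4 or tumours 1, 2, 3 and 5 left out, and Eif2s3y as a covariate. Tables and tests used Python 3.11.15, numpy 2.4.6, pandas 2.3.3 and scipy 1.17.1, and figures matplotlib 3.10.9.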

Additional observations from a re-analysis of the deposited data

Results flagged for a closer look

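Among 20 sets of 6 arrays (10 genes in tumours and in normal lungs), 1 held an array far from the others, about what chance gives at 1 in 20. Tbx3 in normal lung 1 had a signal of 1170.6, against 1798 to 2058 in the other normal lungs, and its gap to the nearest array was 0.761 of the whole range (critical value 0.625). The same lung was also the lowest normal lung for Tcf21, Tbx2, Tbx4, Foxf2, Meox1 and Meox2. Its Tbx3 signal was above that of every tumour, whose highest was 229.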

How the results depend on the processing

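All 10 genes kept their call in every alternative that gave them a value (27 each, and 26 for Gli1, which the filter on dim probe sets removed). The differences ranged from -4.90 to -3.11 for Tcf21, -2.78 to -2.49 for Tbx2, -3.97 to -2.58 for Tbx3, -2.57 to -2.21 for Tbx4, -2.15 to -1.66 for Tbx5, -1.99 to -0.80 for Foxf2, -1.88 to -1.40 for Meox2 and -4.79 to -2.48 for Hhip. Meox1 ranged from -0.57 to 0.11 (smallest adjusted p 0.177) and Gli1 from -0.79 to -0.13 (0.158), limma in each case. Same-numbered samples did not deviate together (r -0.044 to 0.043). By Eif2s3y, tumours 1, 2, 3 and 5 came from other animals than the normal lungs, so their numbers do not pair samples of the same animal. For the remaining tumours, and for pairing of another kind, such low correlations do not settle it. With the replicate block 8 of the 10 genes were lower. The count of other mesenchymal factors higher in tumours, 0, was 1 with median centring, with tumours 1, 2, 3 and 5 left out, and with the covariate, and 0 to 1 with single arrays left out. Hedgehog genes lower were 6 with the covariate. Hedgehog genes higher were 2 with median centring, 1 with quantile normalization, no trend, array weights, the probe set of largest variance, the mean of the probe sets or tumours 1, 2, 3 and 5 left out, and 0 to 1 with single arrays left out. Other T-box genes higher were 2 with the probe set of largest variance and 0 with the covariate. In the list of growth factors, receptors and related genes, those higher were 6 with median centring, 5 with the filter on dim probe sets and 3 to 5 with single arrays left out. The shift of Tbx2 against Tbx3 reversed to -0.10 with the mean of the probe sets. The filter removes genes, and the covariate changes both the estimates and the degrees of freedom. The cause of these moves was not tested for any setting. Over all probe sets the median difference was -0.06, and 0.05 and 0.13 after quantile normalization and median centring. Genes called were 3176 lower and 2216 higher, 2913 and 2527 after quantile normalization, and 2341 and 3498 after median centring. The within-array pairs were not computed for the variance models, the block, the weights and the covariate. Signals near the offset, as in Hhip, Gli1, Fgf10 and Gli2, limit what sizes can be read.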
